A study of Mus musculus with 12 samples.

Results

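Messenger RNA of 8 genes of ductal fluid secretion was followed in 12 libraries of sorted mouse liver cells. The genes were the secretin receptor Sctr, the chloride channels Cftr and Ano1, the anion exchanger Slc4a2, the chloride loader Slc12a2, the sodium pump subunit Atp1b1, the carbonic anhydrase Car2 and the water channel Aqp1. They were selected by symbol from a table of 53599 genes, and all 8 were present and passed the filter on low counts, which kept 16210 genes. The mice, labelled WT, had received AAV8-TBG-Cre, a viral vector whose TBG promoter drives Cre recombinase in hepatocytes, so that hepatocytes and their descendants carried EGFP. The labels name no reporter allele, age or sex, and every group, the resident ducts included, came from mice fed 0.1% DDC for 8 weeks, a diet that injures bile ducts. Cells with EGFP were sorted by 2 surface proteins into early (neither Cd24 nor Epcam), intermediate (Cd24 alone) and full (Cd24 together with Epcam). Cells that lacked EGFP and carried Epcam, the BEC group, stood for the resident biliary epithelium. There were 3 libraries a group, the labels do not say that they came from separate animals, and p-values therefore measure only the spread between these samples.

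Cholangiocytes, the cells that line bile ducts, add bicarbonate and water to the bile that hepatocytes make. Secretin binds its receptor on the basolateral side and raises cyclic AMP, protein kinase A opens the Cftr chloride channel on the apical side, and chloride that leaves is exchanged for bicarbonate by Slc4a2. The chloride is loaded by the sodium, potassium and chloride cotransporter Slc12a2, the gradient is kept by the sodium pump, carbonic anhydrase supplies bicarbonate, and water follows through aquaporins. The comparison asks when this machinery appears along the conversion of hepatocytes to ductal cells.

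The 8 genes did not appear together. Sctr and Cftr were close to 0 counts in early cells and were present in every intermediate library. Ano1 was at most 1.01 CPM (reads scaled to a common library size with TMM factors) in intermediate cells and rose mainly in the full group. Slc12a2 and Atp1b1 were present from the start and rose at each step. Car2 fell at the first step and rose at the next, Slc4a2 rose little with TMM factors, and Aqp1 stayed at a few CPM in every group.

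**Figure D1:**
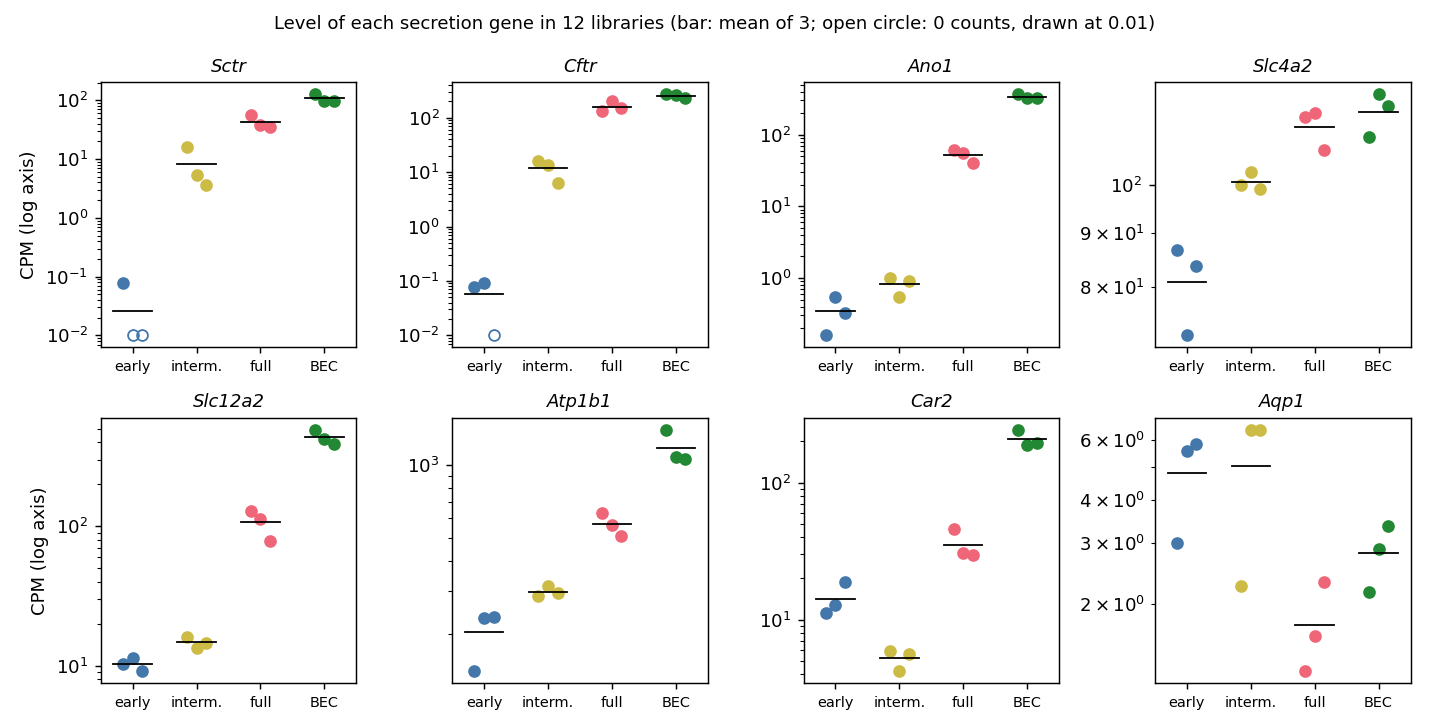
CPM of each gene (log axis, with its own range in each panel) in the 3 libraries of the early, intermediate, full and BEC groups; bars are means and open circles are libraries with 0 counts, drawn at 0.01. Sctr and Cftr climb from the intermediate group on, Ano1 climbs in the full group, Car2 dips in the intermediate group, and Aqp1 never exceeds 6.41 CPM.

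Sctr, the receptor at the head of the pathway, had 0.0791, 0 and 0 CPM in early replicates 1, 2 and 3, which was 1 read in all. In intermediate it had 16.0, 5.31 and 3.68 CPM, in full 56.3, 38.4 and 34.9, and in BEC 126, 98.4 and 97.7. No 2 adjacent groups overlapped, and intermediate replicate 1 was well above the other intermediate libraries. The level in intermediate was 289.6 times that in early by the ratio of counts, with a 95% interval of 51.7 to 11467 that covers counting error only (edgeR adjusted p 3.47e-05). From intermediate to full it rose by a log2 fold change of 2.39 (SE 0.38, edgeR adjusted p 0.000229), and from full to BEC by 1.31 (SE 0.35, edgeR adjusted p 0.014). The last call was lost with DESeq2 (adjusted p 0.0623) and without full replicate 2 (edgeR adjusted p 0.0618), full replicate 3 (0.0665) or BEC replicate 1 (0.0553).

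Cftr, the chloride channel that protein kinase A opens and whose loss causes cystic fibrosis, had 0.0791, 0.0909 and 0 CPM in early, 2 reads in all. It had 16.1, 13.4 and 6.28 CPM in intermediate, 130.1, 198 and 151 in full, and 267, 258 and 229 in BEC. The groups were separate at every step, with the full mean at 63.6% of the BEC mean. The ratio of counts between intermediate and early was 213, with a counting interval of 58.6 to 1759 (edgeR adjusted p 3.76e-07). The next step added a log2 fold change of 3.75 (SE 0.26, edgeR adjusted p 2.13e-07). BEC exceeded full by 0.65 (SE 0.23, 95% interval 0.16 to 1.15), which was not called (edgeR adjusted p 0.0593), although the lowest BEC library lay above the highest full library. The same difference was called with the replicate number as a block (0.66, edgeR adjusted p 0.0158), with only the 6 libraries of the comparison (0.0081), with no filter on low counts (0.000541), and when intermediate replicate 1 (0.0344), intermediate replicate 3 (0.00538) or full replicate 2 (0.0385) was left out.

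Ano1, a chloride channel opened by calcium, followed another course. It had 0.158, 0.546 and 0.324 CPM in early and 1.01, 0.548 and 0.906 in intermediate, which were 12 and 42 reads in all. Full libraries had 61.3, 55.5 and 40.2 CPM and BEC libraries 365, 320 and 328. Both early and intermediate were thus close to the limit of detection, and the main rise came between intermediate and full, with a log2 fold change of 6.0 (SE 0.23, edgeR adjusted p 4.06e-09). BEC was higher than full by a further 2.69 (SE 0.16, edgeR adjusted p 1.01e-07). The small difference between intermediate and early (1.27, SE 0.49, edgeR adjusted p 0.0387; 1.91 with library totals) was lost without early replicate 1 (0.17), early replicate 3 (0.092), intermediate replicate 1 (0.109) or intermediate replicate 3 (0.0878).

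Promoter windows are shown for Cftr, present from the intermediate stage, Ano1, which rose mainly at the full stage, and Aqp1, low throughout, because these 3 genes took 3 different courses. RefSeq windows of build GRCm38.p6 were matched by symbol for 5 of the 8 genes. Each sequence is the 250 bases before the annotated start, 5′ to 3′ on the gene's strand, with CpG dinucleotides in capitals. The Cftr window lies at chr6:18170437-18170686 on the plus strand, the Ano1 window at chr7:144738574-144738823 on the minus strand and the Aqp1 window at chr6:55336049-55336298 on the plus strand.
Cftr: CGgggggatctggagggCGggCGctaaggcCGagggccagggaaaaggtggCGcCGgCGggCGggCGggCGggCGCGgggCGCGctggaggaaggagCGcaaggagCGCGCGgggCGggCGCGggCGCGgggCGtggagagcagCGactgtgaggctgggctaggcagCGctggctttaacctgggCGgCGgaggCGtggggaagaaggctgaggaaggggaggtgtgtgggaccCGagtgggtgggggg
Ano1: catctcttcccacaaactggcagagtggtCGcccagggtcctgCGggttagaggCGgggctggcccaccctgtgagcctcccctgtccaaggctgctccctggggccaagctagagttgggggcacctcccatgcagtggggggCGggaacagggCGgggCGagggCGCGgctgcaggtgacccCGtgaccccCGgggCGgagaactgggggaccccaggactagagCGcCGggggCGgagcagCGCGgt
Aqp1: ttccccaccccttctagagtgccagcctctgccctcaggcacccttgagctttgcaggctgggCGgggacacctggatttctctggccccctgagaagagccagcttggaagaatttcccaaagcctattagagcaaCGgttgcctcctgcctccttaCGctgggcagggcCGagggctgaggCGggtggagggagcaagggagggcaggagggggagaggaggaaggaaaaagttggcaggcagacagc

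The Cftr window holds 30 CpG dinucleotides, the Ano1 window 16 and the Aqp1 window 5, against a median of 6 over all 32851 windows of this length. Slc4a2, which was expressed at every stage, has 28 and 16 in its 2 windows, and Atp1b1 has 24. None of the 6 windows of the 5 genes held any of 5 motifs on either strand. These were GTTAATNAT for HNF1 (in 0.737% of all windows), CATTCC for TEAD (12.6%), AACCGGTT for Grainyhead-like factors (0.116%), TGACGTCA for the cAMP response element (1.55%) and AACAAT for Sox (9.42%). The motifs do not contain one another.

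Slc4a2, the exchanger that trades chloride for bicarbonate, was expressed in all 4 groups. It had 86.8, 71.9 and 83.8 CPM in early, 100.1, 103 and 99.1 in intermediate, 116, 117 and 108 in full, and 111, 122 and 119 in BEC. Intermediate was higher than early by a log2 fold change of 0.32 (SE 0.09, edgeR adjusted p 0.00668), which was 0.98 with library totals in place of TMM factors (edgeR adjusted p 4.65e-07). Full against intermediate (0.17, 95% interval -0.01 to 0.36, edgeR adjusted p 0.126) was not called, though it was with DESeq2 (0.21, adjusted p 0.0444) and with library totals in place of TMM factors (0.37, edgeR adjusted p 0.00376). BEC against full (0.05, 95% interval -0.14 to 0.23, edgeR adjusted p 0.775) was not called either. Of its exon bases, 13.7% also belong to Fastk on the other strand, and whether counting used strand is not given in the sources used here.

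Slc12a2, which brings chloride into the cell, was already expressed in early cells at 10.3, 11.4 and 9.23 CPM. Intermediate libraries had 16.2, 13.4 and 14.7 CPM, full libraries 129, 113 and 77.8, and BEC libraries 490.3, 419 and 390.4. Each group lay above the one before it. The log2 fold changes were 0.52 (SE 0.18, edgeR adjusted p 0.0263), 2.86 (SE 0.17, edgeR adjusted p 7.61e-08) and 2.02 (SE 0.16, edgeR adjusted p 1.05e-06). With library totals the first was 1.18 (edgeR adjusted p 5.17e-05). It was lost with TMM factors without early replicate 1 (edgeR adjusted p 0.0585), early replicate 3 (0.0914) or intermediate replicate 1 (0.0803).

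Atp1b1, the beta subunit that carries the sodium pump to the membrane, had the highest level per kilobase of exon of the 8 genes in every group. Its CPM was 140.2, 232 and 235 in early, 287, 314 and 295 in intermediate, 633, 563 and 507 in full, and 1399, 1078 and 1061 in BEC. No groups overlapped. It rose by 0.56 (SE 0.18, edgeR adjusted p 0.0154), 0.93 (SE 0.18, edgeR adjusted p 0.000884) and 1.05 (SE 0.18, edgeR adjusted p 0.000654) on the log2 scale, and by 1.22 at the first step with library totals (edgeR adjusted p 3.93e-05). Of the Atp1b1 exon bases, 18.7% are shared with Nme7 on the other strand.

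Car2, a cytosolic enzyme that makes bicarbonate from carbon dioxide and water, was the one gene of the 8 that fell and then rose. Early libraries had 11.1, 12.8 and 18.8 CPM, intermediate libraries 5.91, 4.22 and 5.6, full libraries 45.5, 30.7 and 29.4, and BEC libraries 243, 187 and 196. All 3 intermediate libraries lay below all 3 early ones, and full lay above both. The decrease was -1.44 on the log2 scale (SE 0.24, edgeR adjusted p 0.000156), followed by rises of 2.75 (SE 0.23, edgeR adjusted p 7.46e-07) and 2.57 (SE 0.20, edgeR adjusted p 9.11e-07). With library totals in place of TMM factors the decrease was -0.78 (edgeR adjusted p 0.00962). Erythroid cells also make Car2. Of 8 erythroid markers, 7 were in the table, and their summed level was 18.7 to 33.3 CPM in early against 2.33 to 3.17 in intermediate. Nearly all of it was Alas2 (24.3 ± 7.62 CPM in early, SD, n = 3), while Hba-a1, Hba-a2, Hbb-bt and Slc4a1 had 0 counts in every early library. The part of these cells in the early level of Car2 was not tested.

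Aqp1, a water channel of cholangiocytes and also of endothelium and red cells, was low in all groups. It had 3.01, 5.55 and 5.83 CPM in early, 2.26, 6.41 and 6.4 in intermediate, 1.28, 1.61 and 2.32 in full, and 2.17, 2.89 and 3.38 in BEC, from 30 to 117 reads a library. Its exon bases are shared with no other gene in GENCODE M21. Intermediate against early was not called (0.08, 95% interval -0.75 to 0.91, edgeR adjusted p 0.888). Full was lower than intermediate (-1.54, SE 0.40, edgeR adjusted p 0.00699), although full replicate 3 exceeded intermediate replicate 1. BEC against full (0.70, 95% interval -0.17 to 1.57, edgeR adjusted p 0.277) was not called. The summed CPM of 7 endothelial markers was 15.5 to 23.2 in early, 13.1 to 21.8 in intermediate, 7.15 to 11.5 in full and 4.19 to 11.8 in BEC. Its members did not share 1 course. Pecam1 (1.09, 1.14, 0.377 and 0.625 CPM on average in early, intermediate, full and BEC), Cdh5 (1.16, 1.42, 0.322 and 0.889) and Kdr (1.49, 1.26, 0.424 and 0.661) had, like Aqp1, their lowest mean in full. Tek (0.627, 0.586, 0.277 and 0.249) and Emcn (0.164, 0.14, 0.0437 and 0.0155) had their lowest mean in BEC. Stab2, made by sinusoidal endothelium, was 11.9 ± 0.949, 5.02 ± 1.64, 1.4 ± 0.732 and 0.938 ± 0.83 CPM in the 4 groups, and Egfl7 4.14 ± 1.45, 8.16 ± 1.02, 6.78 ± 1.13 and 4.84 ± 1.7 (SD, n = 3). The sum of 8 stellate, fibroblast and smooth muscle markers was 53.8 to 178 CPM in early, 27.2 to 106 in intermediate, 25.6 to 43.6 in full and 45.9 to 78.8 in BEC. Early replicate 1 was the lowest early library for Aqp1 and for Col3a1 (22 CPM, against 80.3 and 81). The part of these cells in the Aqp1 level was not tested.

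Read by step, 6 of the 8 genes were called higher and 1 (Car2) lower between intermediate and early, where 54.4% of all genes tested were called (28.7% higher, 25.7% lower). Between full and intermediate, 6 were called higher and 1 (Aqp1) lower, against 40.7% of all genes (20.8% higher, 19.8% lower). BEC was called higher than full in 5 of 8 genes and lower in 0, against 21.3% of all genes (10.7% higher, 10.6% lower). BEC against early gave 7 higher and 0 lower, against 73.1% of all genes (40.0% higher, 33.0% lower), with Aqp1 not called (-0.76, SE 0.39, edgeR adjusted p 0.0956). Aqp1 was called lower there with the replicate block (-0.74, edgeR adjusted p 0.0168), with no filter (0.0489), with only the 6 libraries (0.0496), and when early replicate 1 (0.0374) or intermediate replicate 1 (0.0376) was left out. At an unadjusted p under 0.05 the numbers lower remained 0 at both of these, by edgeR. The median log2 fold changes of the 8 genes were 0.54, 2.57 and 1.18 at the 3 steps, against 0.06, 0.01 and 0 over all genes. With library totals in place of TMM factors, the median of all genes at the first step moved from 0.06 to 0.72 and that of BEC against early from 0.14 to 1. All 7 calls of the first step kept their direction under that scaling.

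**Figure D2:**
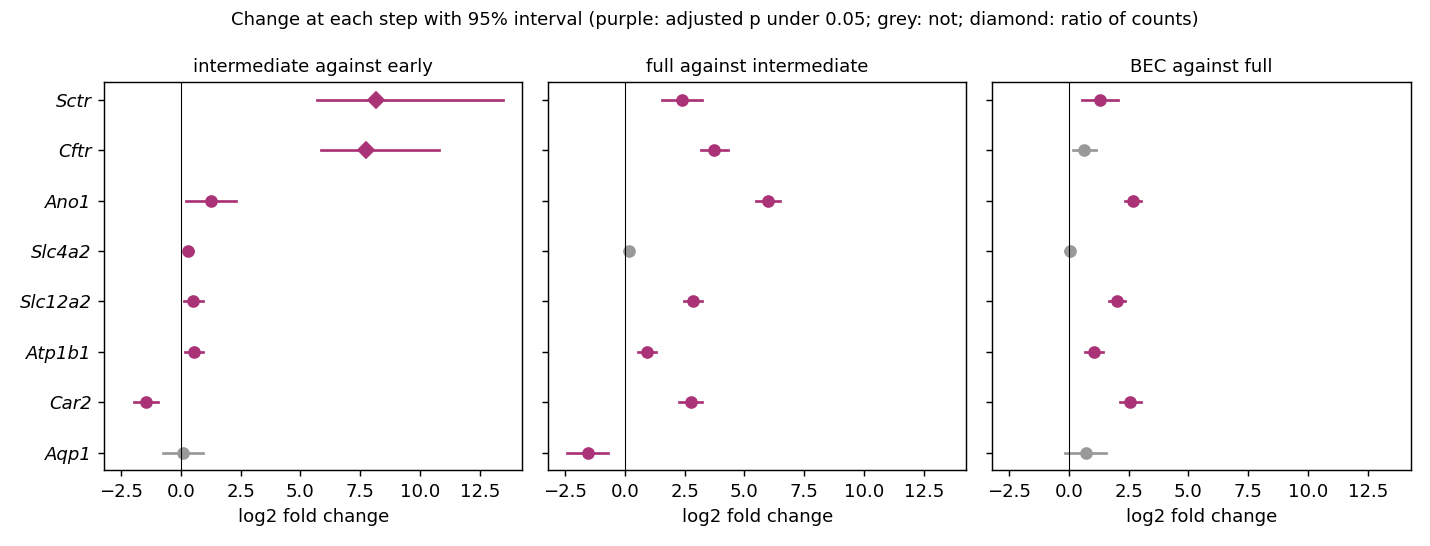
Log2 fold change of each gene at the 3 steps with its 95% interval; circles are edgeR estimates, diamonds are ratios of counts where early had 3 reads or fewer, purple marks an adjusted p under 0.05 and grey the rest. Sctr and Cftr changed most at the first step, Ano1 (6.0), Slc12a2 (2.86) and Car2 (2.75) at the second.

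Whether a gene changed more at one step than at the other was tested as the second log2 change minus the first. Of all genes tested, 16.4% were called, 5.64% with a higher and 10.8% with a lower change at the second step. Ano1 (difference 4.73, SE 0.77, edgeR adjusted p 0.000939), Slc12a2 (2.34, SE 0.31, edgeR adjusted p 0.000203) and Car2 (4.19, SE 0.42, edgeR adjusted p 1.9e-05) changed more at the second step. Sctr (edgeR adjusted p 0.0381) and Cftr (edgeR adjusted p 0.0273) changed more at the first. Because these 2 genes had 1 and 2 reads in early, their fitted differences of -5.51 and -3.83 depend on a prior count. Leaving out early replicate 1, 2 or 3 gave edgeR adjusted p-values of 0.0874, 0.0933 and 0.104 for Sctr and 0.0673, 0.0582 and 0.0879 for Cftr. Sctr also lost its call without full replicate 2 (0.0561) or full replicate 3 (0.054), and Cftr without intermediate replicate 1 (0.0641) or intermediate replicate 2 (0.0678). Slc4a2 (-0.15), Atp1b1 (0.36) and Aqp1 (-1.61, edgeR adjusted p 0.117) were not called. With the replicate number as a block Aqp1 passed (-1.51, edgeR adjusted p 0.0212), as it did with no filter (-1.65, 0.0253), with library totals (-2.07, 0.0247) and without intermediate replicate 1 (-2.31, 0.018), and Slc4a2 with library totals (-0.61, edgeR adjusted p 0.00732).

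How far each gene had come was described on the log2 scale as a share of the change from early to BEC, for the 6 genes called with a log2 fold change of at least 1. In intermediate, Sctr had covered 59.2% ± 11.3 and Cftr 57.7% ± 6.7 of it (SD, n = 3). Because early held 1 and 2 reads, these shares depend on the prior count of 2, being 64.8% and 61.9% with 0.5 and 54% and 53.4% with 5, and their SD leaves out the error of the early level. Atp1b1 stood at 23.4% ± 2.57, Ano1 at 11.4% ± 4.22 and Slc12a2 at 9.58% ± 2.47, and Car2 had gone the other way by -36.0% ± 6.57. With library totals the shares were 36.8% for Atp1b1, 18.8% for Slc12a2 and -15.6% for Car2, and without early replicate 1 that of Atp1b1 was 15.4%. On this log2 scale Sctr and Cftr were ahead of the other 4, and their own ranges (50.2% to 71.8% and 50.1% to 62.8%) overlapped. In full the shares were 93.7% ± 2.89 for Cftr, 86.2% ± 3.77 for Sctr, 71.9% ± 3.3 for Ano1, 62.0% ± 7.03 for Slc12a2, 59.2% ± 6.27 for Atp1b1 and 33.6% ± 8.9 for Car2. Cftr was the most complete and Car2 the least. These shares use the same early and BEC libraries on both sides.

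In CPM the order was another one. Intermediate libraries held on average 25.3% of the BEC level of Atp1b1, 7.76% of that of Sctr, 4.75% of that of Cftr, 3.4% of that of Slc12a2, 2.51% of that of Car2 and 0.243% of that of Ano1. Atp1b1, which early cells already held at 17.2%, thus stood above Sctr and Cftr. Left without intermediate replicate 1, Sctr was at 4.18% and Cftr at 3.92%. Full libraries held 63.6% for Cftr, 48.1% for Atp1b1, 40.2% for Sctr, 24.6% for Slc12a2, 16.9% for Car2 and 15.5% for Ano1. The full means of these 6 genes thus lay below their BEC means, while Slc4a2 stood at 96.7%. In bulk RNA, fewer expressing cells and less RNA per cell cannot be told apart.

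**Figure D3:**
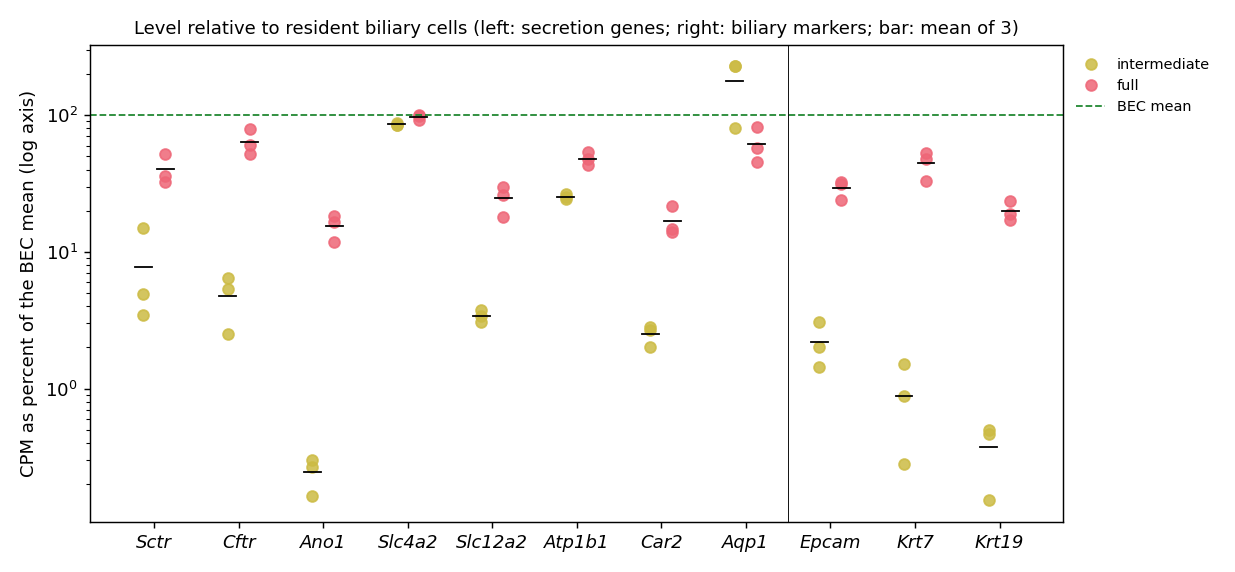
CPM of each gene in intermediate and full libraries as a percent of its BEC mean (log axis, dashed line at 100), with the biliary markers Epcam, Krt7 and Krt19 on the right; bars are means of 3 libraries. In full libraries Cftr (63.6%) stands above Epcam (29.4%) and Krt19 (19.9%), and in intermediate libraries Ano1 (0.243%) lies beside Krt19 (0.373%).

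Biliary markers, of which the intermediate gate selects against Epcam alone, were read beside these levels. As a percent of the full mean, intermediate libraries held 7.39% of Epcam, 2.0% of Krt7 and 1.87% of Krt19, against 19.3% of Sctr, 7.46% of Cftr and 1.57% of Ano1. Left without intermediate replicate 1, a check chosen after seeing the data, Sctr stood at 10.4%, Cftr at 6.16% and Epcam at 5.85%. Krt7 then stood at 1.3%, Krt19 at 1.64% and Ano1 at 1.39%. Epcam was 26.7, 17.4 and 12.4 CPM in intermediate replicates 1, 2 and 3, and Krt7 5.85, 3.4 and 1.08, so that replicate 1 was the highest and replicate 3 the lowest for both, as for Sctr and Cftr. Krt19 was 2.77, 2.96 and 0.906 CPM, with replicate 2 highest and replicate 3 again lowest. The part of Epcam-positive cells in the intermediate levels of Sctr and Cftr was not tested.

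Levels of different genes were compared only after division by length, as CPM per kilobase of exon. In BEC, Atp1b1 was highest at 383 ± 61.9, followed by Car2 at 86.1 ± 12.4, Ano1 at 54.1 ± 3.89, Sctr at 53.4 ± 8.11, Slc12a2 at 39.7 ± 4.72, Cftr at 32.4 ± 2.59, Slc4a2 at 14.1 ± 0.729 and Aqp1 at 1.07 ± 0.232 (SD, n = 3). Ano1 and Sctr did not differ beyond their spread on this length. With the longest coding transcript as the length, Ano1 (73.7) and Slc12a2 (66.4) both stood above Sctr (53.4). In early cells the order was Atp1b1 (65.7), Slc4a2 (9.71), Car2 (5.87), Aqp1 (1.82) and Slc12a2 (0.943), with Ano1, Sctr and Cftr last. Cftr and Sctr were nearly equal per kilobase in full, at 20.6 ± 4.47 and 21.5 ± 5.71 (SD, n = 3).

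A list of 116 other genes of ductal secretion, from receptors to scaffolds, was examined in the same fit, and 89 passed the filter. Between intermediate and early, 28 were called higher and 25 lower. Full against intermediate gave 34 and 22, and BEC against full 26 and 16. Their median log2 fold changes were 0.17, -0.02 and 0.16 at the 3 steps. The shares called were 59.6%, 62.9% and 47.2%, against 54.4%, 40.7% and 21.3% of all genes. With library totals in place of TMM factors, the first step gave 50 higher and 14 lower. The genes are described by class.

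**Figure D4:**
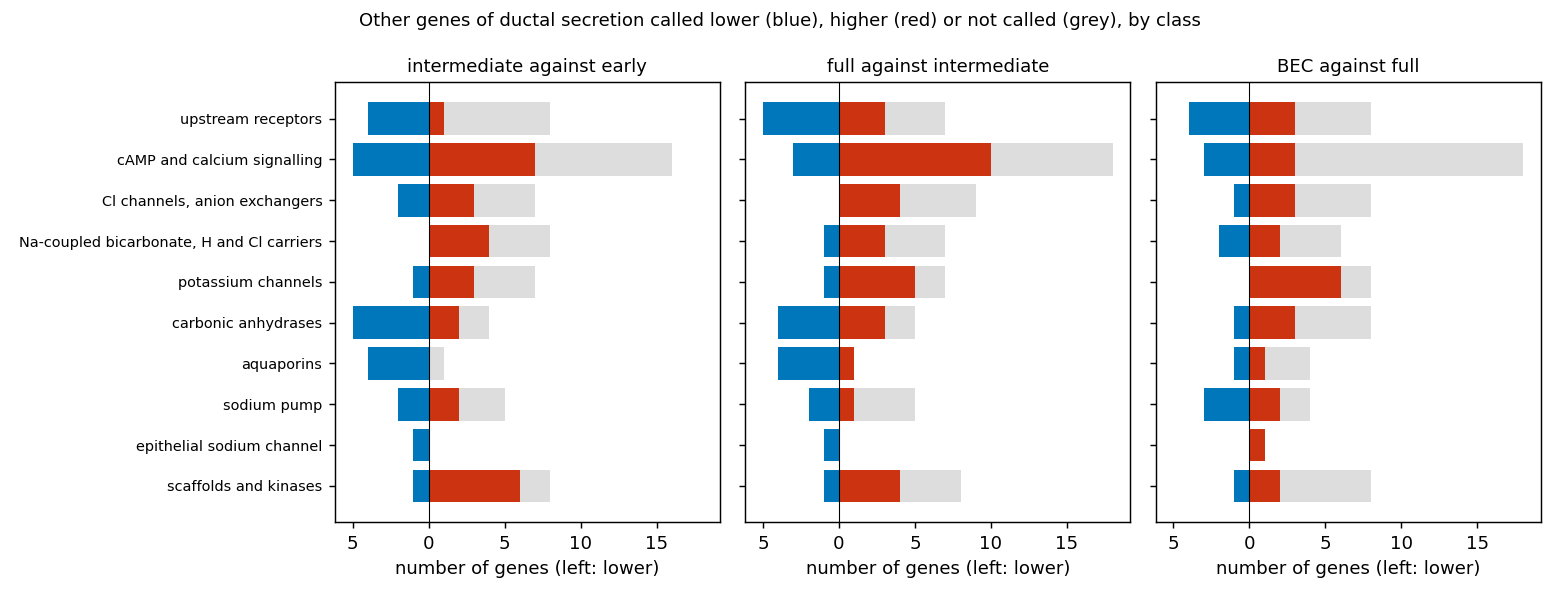
Number of other secretion genes called lower (blue, left), higher (red, right) or not called (grey) in each class at the 3 steps, by edgeR at an adjusted p under 0.05. Potassium channels were called higher in 3, 5 and 6 of 8 genes tested, and 4 of 5 aquaporins were lower at each of the first 2 steps, where 25.7% and 19.8% of all genes were.

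Potassium channels, which hold the membrane voltage that drives chloride out, were called higher in 3, 5 and 6 of 8 genes tested at the 3 steps, against 28.7%, 20.8% and 10.7% of all genes. The first of these counts is near the background. Kcnn4, a calcium-activated channel, went from 1 read in all of early to 1.54 ± 0.915, 33.8 ± 6.5 and 141 ± 8.77 CPM in the next 3 groups (SD, n = 3). Kcne3, a subunit that pairs with Kcnq1, went from 3 reads to 3.51 ± 1.93, 61.5 ± 7.72 and 139.5 ± 4.6 CPM (SD, n = 3). Kcnq1 itself had 10 reads over the 3 intermediate libraries and then 29.0 ± 4.86 CPM in full, a log2 fold change of 7.18 (SE 0.27, edgeR adjusted p 4.06e-09). The subunit was thus called at the first step (ratio of counts 41.2, interval 13.9 to 202, edgeR adjusted p 2.48e-05), while Kcnq1 was not (edgeR adjusted p 0.0521). Whether the 2 genes differ in that step was not tested. Kcnk1 (6.90, SE 0.54, edgeR adjusted p 4.55e-07) and Kcnma1 (4.09, SE 0.37, edgeR adjusted p 4.35e-06) also rose between intermediate and full. Kcnn2, named after its values were seen, was the one potassium channel called lower, by -1.37 at the first step (edgeR adjusted p 4.96e-05) and -1.82 at the second (1.44e-05). Kcnk5, also named after its values were seen, was not called lower at either step. Its means were 94.9, 64.1, 46.7 and 97.6 CPM in early, intermediate, full and BEC.

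Other ion channels and carriers of the list included genes called at more than 1 step. Slc4a3, a relative of Slc4a2, climbed from 0.896 ± 0.49 CPM in early cells, through 28.6 ± 7.93 in intermediate ones, to 115 ± 15.2 in full and 139.7 ± 11.4 in BEC (SD, n = 3). Its log2 fold changes were 4.96 (SE 0.30, edgeR adjusted p 1.65e-08) and 2.01 (SE 0.19, edgeR adjusted p 2.17e-06), with BEC against full not called (0.27, edgeR adjusted p 0.35). Slc4a11 rose at all 3 steps (4.62, 2.13 and 0.80, the last with an edgeR adjusted p of 0.00449). Ano9, of the family of Ano1, had 0 reads in early and 1 in intermediate, then 2.94 ± 0.772 CPM in full and 28.9 ± 3.11 in BEC (SD, n = 3). The red cell exchanger Slc4a1 had 0 reads in all 12 libraries and the kidney cotransporter Slc12a1 had 1.

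Of the 5 other aquaporins tested, 4 were called lower at both of the first 2 steps, against 25.7% and 19.8% of all genes. Aqp9, which carries glycerol and water, had 510.2 ± 54.7, 110.4 ± 9.15, 26.3 ± 5.62 and 5.7 ± 2.22 CPM in early, intermediate, full and BEC (SD, n = 3), falling by 2.21, 2.07 and 2.20 on the log2 scale (largest edgeR adjusted p 1.01e-05). Aqp8 fell from 252 ± 113 to 19.6 ± 5.5 and then 2.85 ± 1.31 CPM (SD, n = 3; log2 fold changes -3.69 and -2.77, edgeR adjusted p 1.18e-05 and 0.000613). Aqp7 fell by 1.36 and 3.99 (edgeR adjusted p 0.00391 and 1.14e-05). Aqp5, a water channel of glands, was the one aquaporin that rose. It had 0 reads in early and intermediate, 0.794 ± 0.424 CPM in full and 8.18 ± 3.61 in BEC (SD, n = 3), and BEC exceeded full by 3.35 (SE 0.47, edgeR adjusted p 0.000635). Aqp5 in BEC replicates reached at most 12.2 CPM, and Aqp2, Aqp3, Aqp4 and Aqp6, named after their values were seen, had 0 reads there.

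Carbonic anhydrases moved in both directions. Of 9 others tested, 2 were called higher and 5 lower at the first step, and 3 and 4 at the second. BEC against full gave 3 and 1. The shares called were 77.8%, 77.8% and 44.4%, against 54.4%, 40.7% and 21.3% of all genes. Car3, Car5a and Car1, of which Car5a is the mitochondrial form of hepatocytes, fell at the first step by 3.51, 3.83 and 3.88 on the log2 scale (edgeR adjusted p 0.00359, 2.85e-05 and 8.16e-05). Car14, a membrane form, was not called between early and intermediate (-0.08, edgeR adjusted p 0.787), at 55.8 ± 4.67 and 52.8 ± 9.89 CPM, then had 14.1 ± 3.47 in full and 0.833 ± 0.561 in BEC (SD, n = 3). The last step was -4.06 (SE 0.32, edgeR adjusted p 8.76e-07). Car9 and Car12, also membrane forms, were higher in BEC than in full by 2.39 (SE 0.31, edgeR adjusted p 8.36e-05) and 2.94 (SE 0.33, edgeR adjusted p 5.76e-05), at 16.9 ± 2.14 and 4.5 ± 0.461 CPM (SD, n = 3).

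Of 7 other sodium pump genes tested, 2 were called higher and 2 lower at the first step, and 1 and 2 at the second. BEC against full gave 2 and 3. The shares called were 57.1%, 42.9% and 71.4%, against 54.4%, 40.7% and 21.3% of all genes, so that the first and second are near the background. Small regulators of the pump were among the genes called. Fxyd1 fell from 214 ± 16.8 CPM in early to 64.2 ± 2.28 in full and 3.28 ± 1.71 in BEC (SD, n = 3), and BEC against full gave -4.28 (SE 0.26, edgeR adjusted p 1.15e-07). Fxyd3 went the other way, from 0.383 ± 0.217 to 14.0 ± 3.18 and 92.7 ± 1.42 CPM (SD, n = 3), with 4.28 (SE 0.24, edgeR adjusted p 3.9e-08) between full and intermediate and 2.73 (SE 0.16, edgeR adjusted p 1.13e-07) between BEC and full. The beta subunit Atp1b2 rose at the first step by 2.78 (SE 0.44, edgeR adjusted p 0.00011) and was lower in BEC than in full by -2.32 (SE 0.37, edgeR adjusted p 0.000384).

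Signalling genes above and below the channels moved in both directions. Of 12 upstream receptors tested, 1 was called higher and 4 lower at the first step, and 3 and 5 at the second. Of 21 cAMP and calcium signalling genes, 7 were called higher and 5 lower at the first step, and 10 and 3 at the second. The shares called were 41.7% and 66.7% for the receptors and 57.1% and 61.9% for the signalling genes, against 54.4% and 40.7% of all genes. The adenylyl cyclase Adcy2 rose at the first step (ratio of counts 37.5, interval 12.6 to 184, edgeR adjusted p 3.17e-06) and Adcy8 at the second (67.8, interval 11.9 to 2707, edgeR adjusted p 0.000109), although Adcy8 reached only 2.72 ± 0.568 CPM in BEC (SD, n = 3). Prkar2b, a regulatory subunit of protein kinase A, rose by 3.69 at the second step (SE 0.47, edgeR adjusted p 2.91e-05). Wnk2, a kinase related to those that act on chloride cotransporters, rose by 4.34 at the first step (SE 0.31, edgeR adjusted p 7.55e-08) and by 1.73 at the second (SE 0.21, edgeR adjusted p 1.88e-05). Pdzk1, a scaffold of apical transporters, was lower in BEC than in full (-2.61, SE 0.42, edgeR adjusted p 0.000454). Among genes named after their values were seen, Itpr3, the calcium release channel of cholangiocytes, rose at each step from 51.8 ± 2.26 to 119 ± 9.75, 181 ± 15.6 and 261 ± 2.68 CPM (SD, n = 3). Sstr2, the receptor of somatostatin, which opposes secretin, stood at 17.7 ± 4.24 and 20.7 ± 5.24 CPM in early and intermediate, and at 9.89 ± 1.55 and 6.25 ± 0.552 in full and BEC (SD, n = 3). It fell at the second step (-1.07, SE 0.21, edgeR adjusted p 0.000983) while Sctr rose. The receptor Gcgr and the signalling gene Rapgef4, also named after their values were seen, had a lower mean in each later group. Gcgr had means of 486, 149, 18.2 and 4.37 CPM in early, intermediate, full and BEC, and Rapgef4 334, 113, 21.7 and 8.56.

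The genes most like Cftr over the 12 libraries, by Pearson correlation of log2 CPM, were Sipa1l3 (r = 0.998), Nptxr (0.997) and Ppp1r9a (0.996). Those most like Sctr were Dock1 (0.997), Magi1 (0.996) and Lrrc1 (0.996). Such values are common here, since 1114 of 10662 genes compared had an r above 0.95 with Cftr and 1008 with Sctr, and all 12 libraries share the same 4 groups.

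Total counts were between 15112893 and 19731887 a library, and 3 reads corresponded to between 0.128 and 0.273 CPM. Mitochondrial genes took 5.45% to 11.4% of the counts in early libraries (11.4% in replicate 2), 3.99% to 4.75% in intermediate, 2.2% to 2.48% in full and 2.58% to 3.43% in BEC, and the part of this difference in the results was not tested. Summed hepatocyte markers fell from between 91968 and 95857 CPM in early to between 1920 and 2539.7 in BEC, and summed biliary markers went from between 951 and 1912 to between 9165 and 12075 in intermediate and between 13499 and 16825 in BEC. Most of the biliary sum was Spp1 (1237 ± 504 CPM in early, 9866 ± 1523 in intermediate and 12144 ± 2026 in BEC, SD, n = 3). The summed macrophage markers went from between 20.1 and 23.1 CPM in early to between 131 and 144 in BEC. Nearly all of the BEC sum was Csf1r (127 ± 6.69 CPM, SD, n = 3), against 3.94 ± 0.157 in early. In early and BEC, Adgre1 was 0.135 ± 0.234 and 0.522 ± 0.486 CPM, Clec4f 1.7 ± 0.66 and 3.69 ± 3.55, C1qa 0.763 ± 0.306 and 2.41 ± 2.29, Marco 0.923 ± 0.183 and 1.22 ± 1.36, and Cd68 14 ± 2.08 and 3.46 ± 1.09 (SD, n = 3). Summed mesothelial markers went from at most 4.13 CPM in early to at least 188 in BEC through Msln (198 ± 13.2 CPM in BEC), while Upk3b was 1.14 ± 0.376 and 0.683 ± 0.297 CPM and Wt1 0.192 ± 0.258 and 0.47 ± 0.138 in early and BEC (SD, n = 3). The part of other cells in the higher BEC levels of Ano1, Slc12a2, Atp1b1 and Car2 was not tested.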

How the data were processed

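The 12 libraries held bulk RNA of sorted liver cells. The authors deposited counts of reads per gene, made with STAR 2.7.10b and featureCounts 2.0.1 on GRCm39, per the submitters' processing notes, which also list DESeq2. The annotation, the strand setting and the treatment of reads with several matches are not given in the sources used here, and a second, normalized table was not used. Counts were tested in edgeR 4.0.16 (R 4.3.3) by quasi-likelihood in 1 fit over all 12 libraries, with TMM factors (0.652 to 1.22), filterByExpr and Benjamini-Hochberg adjustment over 16210 genes, and calls were made at an adjusted p under 0.05. The fitting code was also tested on simulated counts. For groups with 3 reads or fewer, ratios of summed counts carry exact (Clopper-Pearson) 95% intervals, for counting error only. Lengths and exon overlaps came from GENCODE M21 (GRCm38), with no coordinates carried between builds. Same-numbered libraries deviated together between adjacent groups (r 0.121 to 0.293, 0.137 to 0.322 and 0.17 to 0.257 at the 3 steps), a link seen in the data that the labels do not state. Named were the 8 genes, Aqp8, Aqp9, Slc4a1, Slc4a3, Slc12a1 and, at each step, up to 10 other secretion genes with the largest called change and a mean of at least 1 CPM in the higher group; 1 further gene is not reported here. The genes and lists were chosen with earlier results of these data known. Alternatives were library totals, DESeq2 1.42.0, no filter, a replicate block, only the libraries compared, and leaving out each library.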

Additional observations from a re-analysis of the deposited data

How the results depend on the processing

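The numbers of the 8 genes called at each step stayed within 1.5 times under library totals, DESeq2, no filter, the replicate block and the 6 libraries of each comparison. Leaving out each library gave 5 to 7 for intermediate against early, 7 to 7 for full against intermediate, 4 to 6 for BEC against full and 7 to 8 for BEC against early. The number with unequal steps was 5, and 3 to 5 with a library left out; it was 3 without any 1 of the early libraries. With the replicate block the calls were 7, 7, 6 and 8, and 6 for unequal steps, with no changed call of the 8 genes beyond those given above. Signs turned only for values that were not called. With library totals, Aqp1 in BEC against early was 0.10 and the difference between steps of Atp1b1 was -0.10. Aqp1 in intermediate against early lay between -0.17 (without early replicate 1) and 0.43 (without intermediate replicate 1), with -0.14 and -0.13 without intermediate replicates 2 and 3. Aqp8 in BEC against full lay between -1.42 (without BEC replicate 3) and 0.12 (without BEC replicate 1 or 2). With library totals 85.6% of the calls between intermediate and early over all genes were higher, against 52.8% with TMM; between full and intermediate the shares were 72.6% and 51.2%, and between BEC and early 80.3% and 54.8%. The causes were not tested. Depth limits Sctr, Cftr and Ano1 in early cells, where they had 1, 2 and 12 reads.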
